A study of Homo sapiens with 10 samples.

Results

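The regions described here had an accessible-chromatin peak in parental leukemia cells after 6 h of prexasertib and after camptothecin, in all 5 libraries of SLFN11 knockout cells, and none in parental cells given DMSO. They are called members below. Peaks of all 10 libraries that overlapped by at least 1 bp on chromosomes 1 to 22 and X were merged, and 1407 of the 35505 merged regions (3.96%) met the rule. The members were chosen by the peak calls in these 8 lists, so values from those libraries are a description with no test. The members were 33.1% of the 4249 regions gained with both drugs in parental cells and 9.40% (8.94% to 9.88%) of the 14971 regions called in all 5 knockout lists. Of the 1940 regions called in all 5 knockout lists and not in parental DMSO cells, 72.5% were members. Another 216 were gained in parental cells with 6 h of prexasertib alone, 143 with camptothecin alone and 174 with neither. The remaining regions gained with both drugs were called in 1 to 4 knockout lists (2414 regions) or in none (428 regions).

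The cells are CCRF-CEM, a T lymphoblast line from a human leukemia, assayed by ATAC-seq, where a transposase cuts and tags open DNA. SLFN11 knockout cells were given 100 nM camptothecin for 4 h, DMSO, or 100 nM prexasertib for 2, 4 or 6 h, and parental cells, which carry SLFN11, were given the same treatments. Each of the 10 groups is 1 library, so no difference below was set against a spread between replicates, and intervals (95%, exact binomial for shares, order statistics for medians) cover counting error over regions only. Whether the knockout line is 1 clone and whether the deposited parental 4 h prexasertib peaks came from intact reads (its raw reads are truncated, per the series record), are not given in the sources used here.

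ATAC-seq peaks mark DNA that is not wrapped tightly in nucleosomes, typically promoters and enhancers. SLFN11 is recruited to stressed replication forks, blocks their progress and is known to open chromatin there, and its loss makes cells resistant to many DNA-damaging drugs. Prexasertib inhibits the checkpoint kinase CHK1, which restrains replication origin firing, and camptothecin traps topoisomerase I on DNA. A peak list gives only what passed the caller's threshold. A region missing from parental DMSO cells and present after a drug can therefore have opened, or have been open below the threshold and crossed it, and the values below bear on how far it was from that threshold. Gene context, sequence motifs and the deleted gene itself were not examined, because no annotation or genome of the files' build (hg19) was used, and the cell type was not checked against marker promoters for the same reason.

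The lists differed in background and size. The genome-wide background pileup is the number of fragments expected over a base without a peak, and serves here as a stand-in for depth. It ran from 1.59 to 2.1 in the knockout libraries and from 1.33 to 1.63 in the parental ones. Parental DMSO had the highest background of the parental 5. The background can also depend on fragment length, which was not given. The shortest peak called ran from 160 bp (parental 6 h prexasertib) to 208 bp (knockout 2 h prexasertib). Read counts were not given either, so the order of the libraries by reads is not known. Between 18591 and 23773 regions were called in a knockout library and between 15447 and 22834 in a parental one. Summit height below is the fragment pileup at the summit divided by this background, and has no unit. Height also depends on how much of a library lies in peaks, and the median region called in all 10 lists was itself 2.06-fold higher after 6 h of prexasertib than with DMSO in parental cells (log2 1.05) and 1.81-fold higher after camptothecin (log2 0.85).

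In knockout cells the members were present but weak. Their median height was 10.3 after camptothecin, and 11.9, 12.9, 12.4 and 12.0 with DMSO and at 2, 4 and 6 h of prexasertib, called the time course below. The regions called in all 10 lists had medians of 21.8 after camptothecin, and 25.1, 27.6, 27.0 and 26.1 in the same time order. Members thus stood lower than those regions in each of the 5 knockout libraries. They stood higher than the most similar regions without a parental DMSO peak. In knockout DMSO cells the median was 10.0 in each set called in all 5 knockout lists and gained with 1 drug alone or neither. Where called, regions gained with both drugs and called in 1 to 4 knockout lists had a median of 9.41 there. The median member ranked at percentile 30.0 of the heights in its list after camptothecin and at percentiles 34.0, 44.3, 39.3 and 42.6 with DMSO and at 2, 4 and 6 h of prexasertib. None of these medians reached the middle of its list.

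Parental cells after the drugs showed somewhat higher members than knockout cells did. The median height was 13.8 after camptothecin and 15.1 after 6 h of prexasertib, at percentiles 38.0 and 43.3 of those lists. For regions called in all 10 lists the medians were 34.6 after camptothecin and 40.0 after 6 h of prexasertib, against 18.4 with DMSO. The weakness of the members relative to the regions open everywhere therefore held in both genotypes.

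**Figure D1:**
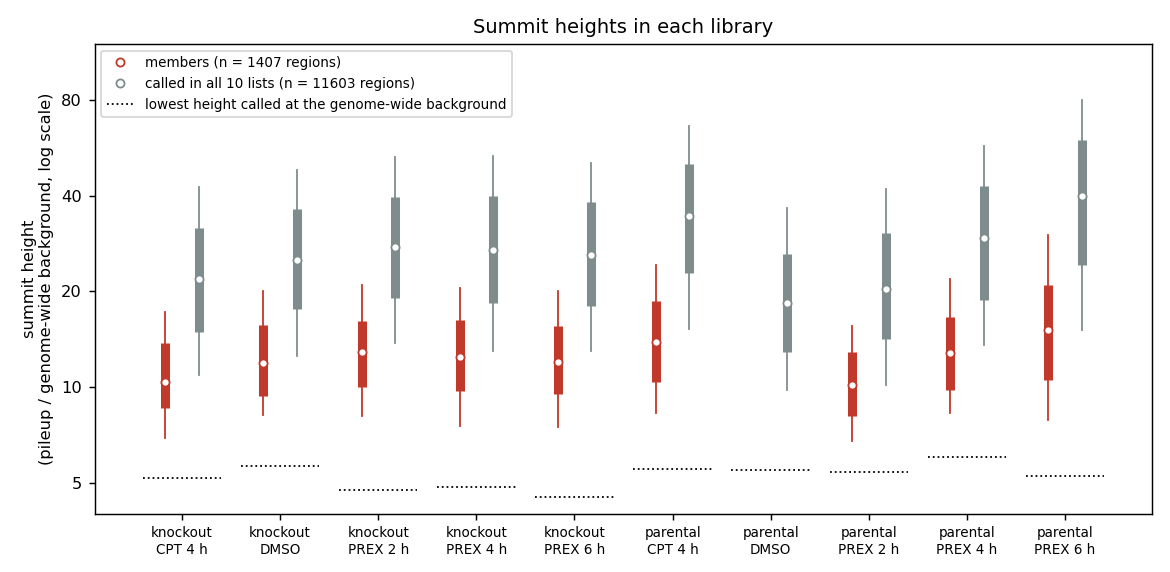
Summit height (pileup over the genome-wide background, log axis) of the 1407 members and of the 11603 regions called in all 10 lists, in each library (CPT, camptothecin; PREX, prexasertib). Circles are medians, thick bars span percentiles 25 to 75, thin lines percentiles 10 to 90 over regions called in that library, and dotted lines the lowest height called at the genome-wide background. Members have no DMSO value in parental cells by the rule, and their medians lie between 10.2 and 15.1 elsewhere.

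Members were concentrated at the low end of knockout strength, where regions without a parental DMSO call, as the rule requires, were also most frequent. The 14971 regions called in all 5 knockout lists were split into 10 groups of nearly equal size by their median knockout height. The weakest group, with heights of 5.01 to 10.03, held 424 members, 28.3% of its regions. The next 3 groups held 372, 257 and 170 members, or 24.8%, 17.2% and 11.4% of their regions. Across the rest the number was 100, 49, 19, 9 and 2, with 5 in the strongest group. Only 5 members stood among the 1497 strongest regions, where the median height was 55.2. These shares also count regions with a parental DMSO call, which the rule excludes. Such regions were 51.0% of the weakest group and 92.5% of the fifth. The shares therefore do not tell how often a region without a DMSO call was a member.

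The rate at which any parental library called these knockout regions also depended on that strength. In the weakest group the parental lists called 76.8% after camptothecin, and 51.0%, 49.6%, 59.9% and 77% with DMSO and at 2, 4 and 6 h of prexasertib. In the fifth group the shares were 98.8% after camptothecin, and 92.5%, 89.6%, 97.0% and 99.3% in the same time order. The 2 h prexasertib and DMSO shares stayed within 2.81 percentage points of each other in all 10 groups. In the strongest group every parental library called over 99% of the regions.

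**Figure D2:**
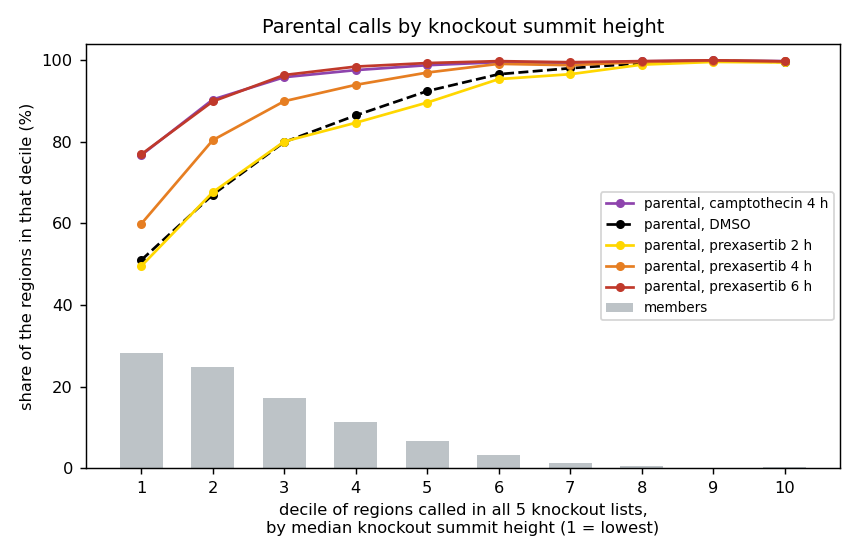
Share of regions (%) called in each parental library, by decile of median knockout summit height, over the 14971 regions called in all 5 knockout lists (lines), and share of each decile that are members (grey bars). All 5 lines start low and converge near 100%, and the members' share goes down from 28.3% in the lowest decile to 0.334% in the highest. That share also counts regions with a parental DMSO call, which cannot be members.

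Within knockout cells the members changed little with treatment. Relative to knockout DMSO cells, the median height changed by a log2 of -0.21 (-0.23 to -0.19) after camptothecin, and by 0.06 (0.03 to 0.08), 0.02 (-0.00 to 0.05) and -0.01 (-0.04 to 0.01) after 2, 4 and 6 h of prexasertib. The regions called in all 10 lists changed by -0.20 after camptothecin and by 0.13, 0.11 and 0.06 after 2, 4 and 6 h. The lower camptothecin heights of the members were therefore matched by the regions open everywhere. Between the highest and the lowest of its 5 knockout heights a member varied by a median of 1.60-fold. For the regions called in all 10 lists that median was 1.47-fold. The members' range was under 2-fold in 1232 of them (87.6%) and over 3-fold in none. The rule required a call in all 5 knockout lists, so a weak region that fell far in any of them could not be a member. The lowest of the 5 heights was the camptothecin one in 631 members (44.8%).

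The members' peaks in knockout cells were of moderate width. The median peak was 405 bp after camptothecin, and 444, 566, 497 and 516 bp with DMSO and at 2, 4 and 6 h of prexasertib. In parental cells the median was 415 bp after camptothecin and 438 bp after 6 h of prexasertib. Regions called in all 10 lists were wider, at 713 bp after camptothecin and 736, 840, 794 and 820 bp over the time course in knockout cells. Relative to knockout DMSO cells, the members' peaks differed in width by a median log2 of -0.11 after camptothecin and of 0.28, 0.10 and 0.17 after 2, 4 and 6 h of prexasertib, against -0.02, 0.16, 0.09 and 0.13 for the regions called in all 10 lists. The 2 h prexasertib library, with the widest members, also had the highest background of the 10. The part of depth in the widths was not tested.

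Set beside parental cells given the same drug, knockout members were lower, and their peaks were about as wide or wider. After 6 h of prexasertib the median log2 of knockout over parental was -0.33 (-0.39 to -0.30) for height and 0.18 (0.14 to 0.23) for width. After camptothecin the height difference was -0.40 (-0.45 to -0.36) and the width difference -0.03 (-0.08 to 0.01). The height differences depended on the division by the genome-wide background. The pileup itself differed by a log2 of 0.06 after 6 h of prexasertib and by -0.14 after camptothecin, and the deposited fold over the local background by -0.20 and -0.22. Over the regions called in all 10 lists the height differences were larger, at -0.55 after 6 h of prexasertib and -0.64 after camptothecin.

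Averaged over the 5 knockout libraries and over the 2 treated parental libraries, the median log2 of knockout over parental height was -0.28 (-0.30 to -0.24) for members and -0.51 for the regions called in all 10 lists. The knockout mean was the higher of the 2 in 397 members (28.2%). In 435 members (30.9%) every knockout height was below both treated parental heights, and in 66 (4.69%) every knockout height was above both. Untreated knockout cells already had a height at or above both treated parental heights in 300 members (21.3%), and one below both in 770 (54.7%).

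Heights of the members ranked alike across libraries. Across the 1407 members the Spearman correlation was 0.66 to 0.74 between knockout libraries, 0.75 between the treated parental libraries, and 0.51 to 0.60 between a knockout and a treated parental library. The points of a pair are the same regions at differing depths, and the rule required each to pass a threshold in both lists. Summits lay close together relative to the peak widths, though farther apart than in the regions called in all 10 lists. Between parental cells after 6 h of prexasertib and knockout DMSO cells the summits lay a median of 59 bp apart, with 44.7% within 50 bp, 66.8% within 100 bp and 15.2% over 200 bp apart. For the regions called in all 10 lists the median was 42 bp, with 56.2% within 50 bp. The distance was 61 bp between parental camptothecin and knockout DMSO cells, and 62 bp between the camptothecin and DMSO libraries of the knockout line. The treated parental libraries were closer to each other, with a median of 44 bp between 6 h of prexasertib and camptothecin.

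The next question is how far the treated parental peaks stood above what the DMSO list could have held. At the genome-wide background, the lowest pileup called in parental DMSO cells was 9 fragments, a height of 5.51. A DMSO summit above this limit can still be missing where the local background is raised or the stretch is too short, since the shortest DMSO peak was 199 bp, so the ratio to the limit is a guide and no strict bound on the change. All members had, by the rule, been gained with both drugs. Of the 19808 regions without a DMSO peak, 43.2% were gained after 6 h of prexasertib and 35.8% after camptothecin, and 4249 regions with both. Both comparisons share the parental DMSO list.

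After 6 h of prexasertib the members' heights in parental cells had a median of 2.74 times the limit, and 1013 members (72.0%) reached 2 times the limit. Of all regions gained at 6 h, 38.1% did so. After camptothecin the median was 2.51 times the limit, with 1042 members (74.1%) at 2 times or more, against 39.2% of all regions gained with camptothecin. At 3 times the limit or more stood 590 members (41.9%) after 6 h of prexasertib and 523 (37.2%) after camptothecin. Taking the lower of the 2 treated heights for each member, the median was 2.26 times the limit, and 878 members (62.4%) reached 2 times. With the deposited fold as the measure, set against the lowest fold called in DMSO cells at the genome-wide background, that median was 1.28. These shares rest on libraries that the rule used and are given as a description.

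The local background lowered these ratios. The members' local background in DMSO cells is not known. That of the parental 6 h prexasertib summit, scaled to the DMSO background, was used for both drugs. With the limit raised to it, the lower treated height had a median of 1.58 times the limit, and 307 members (21.8%) reached 2 times. In 39 members the lower treated height was below this estimated limit. The regions called in all 10 lists were themselves higher in treated than in DMSO parental cells. Divided by their median of 2.06-fold, the members' 6 h height remained at or above the genome-wide limit in 959 members (68.2%), and divided by 1.81 the camptothecin height did so in 1113 (79.1%). These 2 shares do not take in the local background. Against the local limit the median height was 1.85 times the limit at 6 h and 1.76 times after camptothecin. Both medians are below the divisors, so the median member would fall under the local limit after division.

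**Figure D3:**
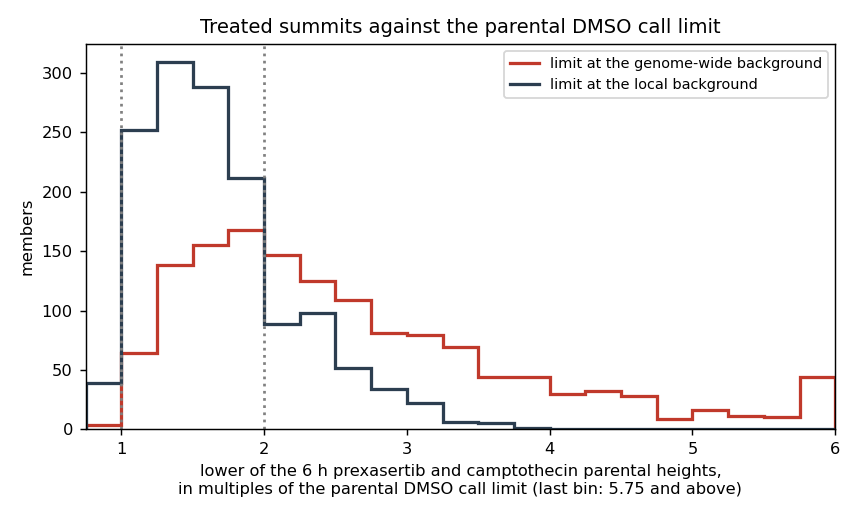
Number of members by the lower of their 6 h prexasertib and camptothecin parental heights, in multiples of the parental DMSO call limit. The limit is the lowest height the DMSO list could call at the genome-wide background (red). The local limit (blue) is an estimate from the region's local background in the parental 6 h prexasertib library. Dotted lines mark 1 and 2 times the limit, and the last bin holds all values from 5.75. With the genome-wide limit 878 members reach 2 times, and with the local limit 307.

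The parental 2 and 4 h prexasertib libraries, which the rule did not use, called many members. At 2 h 745 members (52.9%, 50.3% to 55.6%) were called, against 12.8% of all 19808 regions without a DMSO peak. At 4 h it was 1093 (77.7%, 75.4% to 79.8%), against 20.1% of those regions. The members' share was above that of these regions at both times. Members had to hold a peak in 7 other lists, as only 7.10% of the 19808 regions did, so this comparison is uneven. Regions gained with both drugs and called in 1 to 4 knockout lists had 23.2% called at 2 h and 47.3% at 4 h, and those called in no knockout list 5.14% and 15.7%. These sets were also weaker, with median heights after 6 h of prexasertib in parental cells of 10.5 and 8.53, against 15.1 for members, and the part of strength in the difference was not tested. Regions called in all 5 knockout lists and gained with 6 h of prexasertib alone had 24.1% called at 2 h and 37.5% at 4 h. Those gained with camptothecin alone had 33.6% and 42.7%. Their median parental heights were also lower, at 10.2 after 6 h of prexasertib and 9.68 after camptothecin. All of these comparisons share the parental DMSO list.

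Both times called 647 members (46.0%), 4 h alone 446 (31.7%), 2 h alone 98 (6.97%) and neither 216 (15.4%). The median knockout height was 12.5, 11.9, 10.0 and 10.5 in these 4 sets. The median lower treated parental height was 2.51, 2.38, 1.67 and 1.83 times the DMSO limit in the same sets. Members called at 4 h were therefore the stronger ones in knockout and in treated parental cells. Where called, their parental height had a median of 10.2 at 2 h and 12.8 at 4 h, with peak widths of 346 and 359 bp.

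The 647 members called at both times were missing from the parental DMSO list alone, since they had a peak in the other 9. Their median heights were 10.9 after camptothecin and 12.5, 13.3, 13.0 and 13.0 with DMSO and over the time course in knockout cells, and 15.9 after camptothecin and 10.2, 12.8 and 16.4 over the time course in parental cells. Nearly as many regions, 643, were missing from the parental 2 h prexasertib list alone, a library in treated cells that called about as many regions as DMSO did. The numbers missing from 1 other parental list alone were 54 for camptothecin, 192 for 4 h and 77 for 6 h of prexasertib. In knockout cells they were 136 for camptothecin, 82 for DMSO, and 10, 30 and 17 for 2, 4 and 6 h of prexasertib. The parental DMSO and 2 h lists, which hold the fewest regions of the 10, missed far more such regions than any other.

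**Figure D4:**
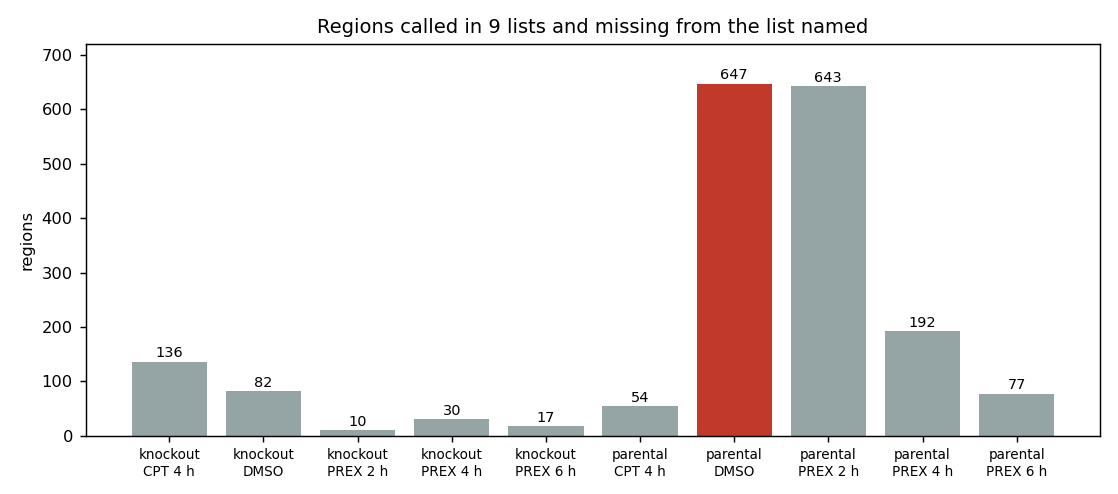
Number of regions called in 9 lists and missing from the list named on the axis (CPT, camptothecin; PREX, prexasertib). Parental DMSO (red, 647 regions, all of them members) and parental prexasertib 2 h (643 regions) stand above the other 8 lists, which have 10 to 192.

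The rule applied with the 2 h prexasertib list in place of the DMSO list, as the one that must hold no peak, gave 1465 regions. Of these, 662 (45.2%) were members. With the 4 h list in that place it gave 666 regions, of which 314 (47.1%) were members. A set of similar size thus came from the 2 h list, and a much smaller one from the 4 h list.

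Which regions met the rule moved with the peak threshold, while their number hardly did. With only peaks of a −log10 q of at least 3 kept in every list, the rule gave 1356 regions, and 1021 of them (75.3%) overlapped a member. At 5 it gave 1347, with 520 (38.6%) overlapping a member. At 10 it gave 1430, with 77 (5.38%) overlapping a member, while 1353 (94.6%) held a parental DMSO peak in the deposited list. Their median knockout height was 21.9 at that threshold, against 11.9 for the members. The rule thus returned a similar number of regions at each threshold, and at 10 nearly all of them were other regions, accessible in parental DMSO cells by the deposited list.

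Few members passed a strict threshold in all lists that had to hold them. The lowest −log10 q over the 7 lists was at least 5 in 520 members (37.0%), at least 10 in 77 (5.47%) and under 3 in 386 (27.4%). The list with the lowest value was knockout camptothecin in 452 members (32.1%) and knockout DMSO in 288 (20.5%). Just outside the rule stood 1196 regions without a parental DMSO peak that were called in 6 of the 7 lists. Of these, 419 were missing from knockout camptothecin and 209 from knockout DMSO, and 216 were missing from parental camptothecin and 143 from parental 6 h prexasertib.

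Members just inside the rule and regions just outside it were set apart by a single peak. At chr1:243645836-243646960 the parental 6 h peak had a −log10 q of 2.00, with a height of 6.56, while knockout heights were 9.77 after camptothecin and 15.1, 15.2, 9.72 and 9.53 over the time course. At chr7:43688210-43689741 the knockout camptothecin peak had the lowest −log10 q, also 2.00, at a height of 6.90. Both regions are members through a peak at the caller's threshold. The lowest values at chr2:95742557-95743118 and chr14:77386224-77386721 were both 2.01, in the knockout 2 h and 4 h prexasertib libraries. Of the regions just outside, chr14:107182933-107183425 had no peak after 4 h of prexasertib in knockout cells, although the other knockout heights were 23.0 after camptothecin and 33.2, 34.8 and 28.1 with DMSO and after 2 and 6 h. The region chr20:61427403-61428139 had no parental camptothecin peak, with knockout heights of 25.9 after camptothecin and 33.2, 32.9, 37.8 and 33.1 over the time course. The strongest region just outside, chr4:49112404-49112863, had knockout heights of 212 to 282 in 4 libraries and none after 4 h of prexasertib. Its local background was 39.4 times the genome-wide one in knockout DMSO cells, and a parental DMSO peak lay 397 bp away. The deposited fold over the local background was 5.30 to 5.52 in those 4 libraries. At chr20:61427403-61428139 the local background was 10.9 times the genome-wide one.

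The strongest members were unlike the rest in having a high local background. At chr18:18516087-18516362 the height was 489 after camptothecin and 480, 429, 428 and 508 over the time course in knockout cells, and 477 after camptothecin, 481 at 4 h and 460 at 6 h of prexasertib in parental cells. The local background there was 141 times the genome-wide one in knockout DMSO cells, the peaks were 196 to 274 bp wide, and the nearest parental DMSO peak lay 505 bp away. A peak far above the genome-wide background thus stood much less above its surroundings. The deposited fold over the local background ran from 3.06 to 3.40 in knockout and from 3.81 to 3.88 in parental cells. Of the 8 members with the highest lowest knockout height, 6 had a local background over 5 times the genome-wide one, as had 70 members (4.98%) in all. They include chr16:46421583-46422045, with knockout heights of 71.0 to 86.3, and chrX:61689823-61690214, with 52.9 to 87.3.

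The other 2 of those 8 had a local background just under 5 times the genome-wide one in knockout DMSO cells. It was 4.86 times at chr7:152133305-152134070 and 4.60 times at chr16:35232445-35232693. Both are strong peaks in both lines. The region chr7:152133305-152134070 had heights of 27.6 after camptothecin and 38.9, 41.4, 34.0 and 31.6 over the time course in knockout cells. In parental cells they were 24.9 after camptothecin and 14.2, 21.1 and 40.0 at 2, 4 and 6 h of prexasertib. Its parental height was higher at each later time, and its peaks were 559 to 746 bp wide in all 9 libraries, with no DMSO peak within 26643 bp. The region chr16:35232445-35232693 had knockout heights of 46.0 after camptothecin and 43.3, 30.5, 32.4 and 43.6 over the time course, and parental heights of 43.6 after camptothecin and 31.1, 40.0 and 33.5 at 2, 4 and 6 h.

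Of the 8 members strongest in both treated parental libraries, 3 had a mean knockout height well below the parental one. At chr19:13263374-13264419 the knockout height was 24.1 after camptothecin and 24.5, 31.0, 28.1 and 27.1 over the time course, against parental heights of 50.5 after camptothecin and 29.8, 34.0 and 59.0 at 2, 4 and 6 h. Its mean knockout height was 0.492 times the treated parental mean, and a DMSO peak lay 363 bp away. The ratio was 0.568 at chr1:228770723-228771628, with knockout heights of 31.9 to 42.9, and 0.606 at chr16:54964029-54965054, with 25.3 to 38.6. All 3 had a local background over 10 times the genome-wide one.

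Of the widest members in knockout cells, some were wide after prexasertib and not with DMSO or camptothecin. At chr17:72732913-72734779 the knockout peak was 528 bp after camptothecin and 630, 1684, 1691 and 1629 bp over the time course, against 746 bp after camptothecin and 675, 376 and 767 bp at 2, 4 and 6 h in parental cells. Its heights in knockout cells were 13.8 after camptothecin and 18.2, 19.5, 18.9 and 21.1 over the time course. The width thus differed by more than the height. At chr14:55031968-55034246 the knockout peak was 318 bp after camptothecin and 281, 1578, 1467 and 1359 bp over the time course. By contrast, chr1:27691951-27693565 was wide throughout in knockout cells, with 1235 bp after camptothecin and 1498, 1443, 1152 and 1565 bp over the time course, against 768 bp after camptothecin and 632, 763 and 721 bp in parental cells. The heights of that region lay between 14.4 and 21.1 in all 9 libraries. At chr3:176914245-176915983 the knockout peak was 672 bp after camptothecin and 1504, 1599, 1396 and 1509 bp over the time course.

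Some members showed a much stronger parental peak than any knockout one. At chr17:16472055-16472697 the knockout height was 5.17 after camptothecin and 10.0, 8.10, 5.94 and 4.51 over the time course, against 16.6 after camptothecin and 18.1 and 30.8 at 4 and 6 h of prexasertib in parental cells. The mean knockout height was 0.285 times the treated parental mean, the lowest ratio of all members. The knockout peaks after camptothecin and at 4 and 6 h of prexasertib had a −log10 q of 2.36, 3.60 and 2.01, where the lowest called was 2.00, while those with DMSO and at 2 h had 8.80 and 7.96. At chr19:58257865-58258750 the knockout heights were 7.47 after camptothecin and 8.78, 6.19, 9.72 and 14.5 over the time course, against 28.4 after camptothecin and 12.2, 13.6 and 32.8 at 2, 4 and 6 h in parental cells. The ratio was 0.305 there, 0.304 at chr1:149576453-149577922 and 0.342 at chr6:26251522-26252230. In these 4 regions the parental 6 h height was 30.8 to 33.5, or over 5 times the DMSO limit at the genome-wide background. At chr6:26251522-26252230, however, a DMSO peak lay 334 bp away, and the local background was 3.13 times the genome-wide one in knockout DMSO cells. Its deposited 6 h fold in parental cells was 4.32, against 11.1 to 13.0 in the others.

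At the other end, the treated parental peak was the weak one. At chr9:85389495-85390174 the knockout height was 11.5 after camptothecin and 12.5, 12.9, 11.9 and 15.5 over the time course, against 5.53 after camptothecin and 7.22 at 6 h in parental cells, with no call at 2 or 4 h. The knockout mean was 2.02 times the treated parental mean, the highest ratio of all members, and the camptothecin peak stood at 1.00 times the DMSO limit. At chrX:154611486-154612553 the knockout height was 13.8 after camptothecin and 21.9, 23.3, 18.4 and 14.0 over the time course, against 10.4 after camptothecin and 7.87 at 6 h in parental cells. The ratio was 2.01 there, 1.99 at chrX:154114534-154115450 and 1.87 at chr3:101249135-101250111. In all 4 regions, open in every knockout library, the lower treated parental height was within 1.43 times the DMSO limit. A parental DMSO peak lay 191 bp from chr3:101249135-101250111.

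Members lay somewhat closer to parental DMSO peaks by median than all regions without a DMSO peak. The nearest parental DMSO peak lay a median of 26996 bp away, against 36599 bp for all regions without a DMSO peak. The median was near that of the members, at 28138 bp, for all regions gained with both drugs. For those of them called in 1 to 4 knockout lists it was 28528 bp. A DMSO peak lay within 500 bp of 13 members (0.924%) and within 2000 bp of 54 (3.84%). These shares were near the 1.00% and 4.06% of all regions without a DMSO peak. Members were also scattered. The nearest other member lay a median of 321586 bp away, and 52 members (3.70%) had another within 10000 bp. The densest window of 1 Mb, chr20:62000001-63000000, held 8 members among 30 regions called in all 5 knockout lists, and the neighbouring window chr20:61000001-62000000 held 6 among 26. The windows chr16:30000001-31000000 and chr19:18000001-19000000 held 7 each.

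Chromosomes differed in the members' share of regions called in all 5 knockout lists. It was 13.8% (10.3% to 18.0%) on chromosome 22, 13.2% (11.0% to 15.7%) on chromosome 17 and 13.1% (10.3% to 16.3%) on the X chromosome, against 9.40% in all. It was lowest on chromosome 4, with 6.42% (4.63% to 8.64%). The base of this share includes regions with a parental DMSO call, which cannot be members. Without those, members were 73.1% on the X chromosome, near the 72.5% in all. The share was then 83.6% on chromosome 22 and 80.9% on chromosome 17, and highest on chromosome 19, with 85.6%. On the X chromosome 45.3% of the regions gained with both drugs were members, against 33.1% in all and at most 35.4% on any other chromosome. Member heights on the X chromosome were 11.0 in knockout and 11.5 in treated parental cells, and the median log2 of knockout over treated parental was -0.07. On chromosome 17 it was -0.49, with heights of 11.9 in knockout and 16.4 in treated parental cells. The regions called in all 10 lists differed in the same way, at -0.37 on the X chromosome and -0.67 on chromosome 17. Members on chromosomes 3, 13, 18 and 21 were as close to equal in the 2 lines, at -0.07, -0.06, -0.00 and -0.04. These shares were not tested between chromosomes, and copy number, which may differ between chromosomes and lines, was not examined.

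**Figure D5:**
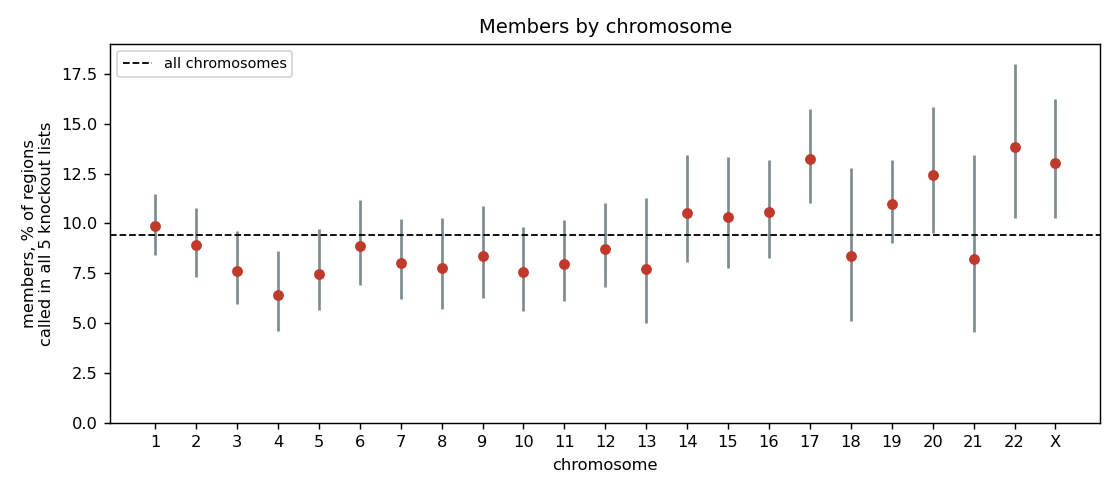
Members as a share (%) of the regions called in all 5 knockout lists on each chromosome, with exact 95% binomial intervals that cover counting error over regions. The dashed line is the share over all chromosomes, 9.40%. By this measure, whose base includes regions with a parental DMSO call, chromosomes 22, 17 and X are highest and chromosome 4 is lowest.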

How the data were processed

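ATAC-seq peak lists of 10 libraries, 1 per group, on build hg19 were analysed. The submitters' processing notes name BWA 0.7.17, MACS2 2.1.2, Picard 2.9.2, SAMtools 1.8, Trim Galore 0.6.2 and Trimmomatic 0.39. In the sources used here, parameters, duplicate removal and any shift of reads for the transposase are not given. The deposited columns are the start and end of each peak, a score, the fold (a ratio of the summit over the local background), and the −log10 p and −log10 q of each summit. Peaks were called per library, and the lowest deposited −log10 q in each list was 2.00.

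Positions are 1-based. The deposited fold and −log10 p were solved for a whole pileup, matched within 0.001, for 99.7% to 99.8% of summits. The lowest background so found is the genome-wide background of a library. The highest summit and the longest peak of a list in a region gave its height and width, and the local background is that of the summit. Depth in read counts was not given. With 1 library per group no test was made and p-values are not given.

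The members, the comparison sets and the rules were chosen with earlier results of these data known. Regions named in the text are the members with the 8 highest lowest heights in knockout or in treated parental cells, the 5 widest in knockout cells, the 4 with the lowest −log10 q, the 4 strongest just outside the rule, and the 4 highest and 4 lowest by knockout over treated parental height. Some of these are given by count only. Gene lists and motifs were not analysed here for want of an annotation and a genome of that build. Alternatives were the peak threshold, depth, overlap, the lists in the rule, the measure of height and width, and the call limit. Steps were tested on simulated data. Python 3.11.15, numpy 2.4.6, pandas 2.3.3, scipy 1.17.1 and matplotlib 3.10.9 were used.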

Additional observations from a re-analysis of the deposited data

How the results depend on the processing

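The number of members, 1407, stayed within 1.5 times under 16 of 19 alternatives. Among these were each of the 7 required lists left out in turn (1452 to 1826) and no DMSO peak within 500 bp (1394). With depth scaled to the lowest background the number was 1254, of which 1025 were members. With a reciprocal overlap of 50% it was 1251, of which 632 had a DMSO peak of another extent. It was 520 with a −log10 q of at least 5 in the 7 required lists only, 745 with the parental 2 h list also required, and 666 with the parental 4 h list in place of DMSO, an alternative chosen after seeing the data.

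The share of members called at 2 h (52.9%) was 48.6% and 50.1% at a −log10 q of at least 5 and 10, 60.4% with 5 in the 7 lists only, 56.5% with depth scaled and 57.1% with reciprocal overlap. The share at 4 h (77.7%) was 80.8%, 85.4%, 90.2% and 83.7% under the first 4 of these. The median over members of the median knockout height (11.9) was 13.0, 15.5 and 21.9 at a −log10 q of at least 3, 5 and 10 and 13.0 with depth scaled. As a pileup it was 22 fragments, and as a deposited fold 4.91. The treated parental height over the DMSO limit (2.26) was 2.51 at a −log10 q of at least 10, 2.00 as a pileup, 1.28 as a deposited fold and 1.58 with the local limit. The corresponding knockout width (490 bp) was 527, 583 and 728.5 bp at a −log10 q of at least 3, 5 and 10, 529.5 bp with depth scaled and 582 bp with reciprocal overlap. Why these values moved was not tested, except that a stricter threshold keeps stronger peaks by construction.

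Leaving out the 70 members with a high local background, also chosen after seeing the data, gave 1337 members, 53.3% called at 2 h, a height of 11.5 and a width of 491 bp. No alternative was run for the distance to DMSO peaks or for chromosomes. No paired analysis was possible because each group has 1 library and the labels give no replicate numbers, and for the same reason no replicate could be left out. A region below the threshold has no value in a peak list, so DMSO heights of the members are not known.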
